A study of Rattus norvegicus with 12 samples.

Results

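The genes described here are transcripts that the RAS/RAF/MEK/ERK pathway switches on and whose products limit the same pathway, together with a pair of ETS transcription factors that are common readouts of it. The list held 10 genes, namely Dusp1, Dusp4, Dusp5, Dusp6, Spry1, Spry2, Spry4, Spred1, Etv4 and Etv5. They were found as the probe sets, the groups of oligonucleotides that stand for a transcript on an Affymetrix rat expression array, whose annotation gives one of these symbols and no other. This gave 14 of the 31042 probe sets tested, for 9 of the 10 genes, since no probe set carried Spred1 as its only symbol and Spred1 was not analysed here. Dusp1, Etv4 and Etv5 each had 2 probe sets, Dusp6 had 3 and the other 5 genes had 1.

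RNA was taken from F111 cells, an established line of rat fibroblasts, in 2 states. Colony cells were F111 cells that had been held in suspension for 16 h (NA16), plated in soft agar for 7 days, released by breaking up the agar and briefly attached to a dish. A16 cells, the control of the study, were F111 cells left to adhere to plastic for 16 h; both were kept in Dulbecco's medium with fetal calf serum. Each group had 3 arrays, which were biological replicate 1, biological replicate 2 and an array named technical replicate 2, and values per array are given below in the order biological replicate 1, technical array, biological replicate 2. The labels give the technical array no biological number. It was averaged with the array of biological replicate 1, which leaves n = 2 cultures in each group. For Colony biological replicate 2, 1 label field names tumour formation while the others name colony formation, and it was kept as Colony. The groups differed in substrate, in the time since plating and in the passage through suspension and agar. They also differed in how long the cells had been attached to a dish, briefly for Colony and 16 h for A16. The paper also reports a karyotype difference, with a chromosome translocation found in a minority of adherent cells but in all colony cells examined. These differences, karyotype included, cannot be told apart, and the part of each in the values below was not tested. How many colonies gave the RNA of a sample is not stated in the sources used here.

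ERK is a kinase that growth factors activate through receptor tyrosine kinases, RAS, RAF and MEK, and in fibroblasts also through attachment to matrix and serum. Active ERK raises the transcription of its own inhibitors, so that their transcripts are widely used as a record of how strongly and for how long the pathway has been active. The dual-specificity phosphatases (Dusp) take the activating phosphates off MAP kinases, Sprouty and Spred proteins act further up, between the receptor and RAF, and Etv4 and Etv5 are ETS family factors whose transcription follows fibroblast growth factor and ERK activity in many tissues.

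The promoters of 3 phosphatase genes are shown because these genes gave the largest differences among the phosphatases and differ in the motifs they hold. The windows run from 250 bases before to 50 bases after the annotated start, 5′ to 3′ on the strand of the gene, and come from RefSeq on the assembly GRCr8. They are chr10:17184603-17184902 for Dusp1, chr1:262543524-262543823 for Dusp5 and chr7:35979354-35979653 for Dusp6, all on the plus strand. Capitals mark a cAMP response element in Dusp1, and in Dusp5 an EGR1 motif followed by a pair of CArG boxes that lie end to end, while the Dusp6 window held none of the motifs searched.
Dusp1: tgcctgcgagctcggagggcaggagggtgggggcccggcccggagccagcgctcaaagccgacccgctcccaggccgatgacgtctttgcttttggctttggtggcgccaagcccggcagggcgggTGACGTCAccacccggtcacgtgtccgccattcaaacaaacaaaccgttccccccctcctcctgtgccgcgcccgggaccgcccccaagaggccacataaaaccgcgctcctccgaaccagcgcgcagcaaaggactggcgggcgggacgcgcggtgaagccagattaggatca
Dusp5: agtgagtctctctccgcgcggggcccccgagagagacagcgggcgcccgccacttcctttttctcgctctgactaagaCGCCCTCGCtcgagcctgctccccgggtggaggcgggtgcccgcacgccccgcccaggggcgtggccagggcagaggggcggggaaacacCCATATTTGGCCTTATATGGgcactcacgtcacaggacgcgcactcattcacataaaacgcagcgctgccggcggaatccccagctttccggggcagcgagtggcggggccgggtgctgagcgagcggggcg
Dusp6: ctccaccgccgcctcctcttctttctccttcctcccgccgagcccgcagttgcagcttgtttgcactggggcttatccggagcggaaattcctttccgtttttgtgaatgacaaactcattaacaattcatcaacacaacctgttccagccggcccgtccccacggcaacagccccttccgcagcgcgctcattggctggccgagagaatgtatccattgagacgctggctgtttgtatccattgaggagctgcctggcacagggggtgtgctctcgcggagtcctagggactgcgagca

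Motifs were searched on both strands. The cAMP response element (TGACGTCA), to which CREB family factors bind, began 124 bases before the start of Dusp1 and stood in 1.83% of the 33469 promoter windows of the table. The CArG box, the motif of serum response factor, stood in 1.64% of all windows, and both copies in Dusp5 began 82 and 72 bases before its start. The EGR1 motif (GCGNGGGCG) began 172 bases before the start of Dusp5 and 163 and 43 bases before the 2 annotated starts of Spry2, and stood in 4.98% of all windows. Neither the ETS motif (CCGGAAG, in 8.75% of all windows) nor the AP-1 motif (TGANTCA, in 7.33%) was found in the 9 windows of 8 genes, which were Dusp1, Dusp5, Dusp6, Spry1, Spry2 with 2 starts, Spry4, Spred1 and Etv5. A match describes these letters only. Dusp4 and Etv4 were not looked at in this way.

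The feedback genes did not move as a block. In Colony cells, Dusp5, 1 of the 3 probe sets of Dusp6 and Spry4 rose, with fold changes of 3.32, 7.20 and 2.02 over A16 cells. A probe set of Dusp1 and a probe set of Etv5 fell, being 6.72-fold and 3.83-fold lower in Colony cells. Spry1 and Spry2 differed in opposite directions by just under 2-fold, and Dusp4 and Etv4 did not pass the test. A call needed an adjusted p under 0.05, from limma with Benjamini-Hochberg adjustment over all 31042 probe sets, and a fold change over 2, the threshold of the study. The p-values combine the spread between these 2 cultures per group with a variance estimated over all probe sets. That shared variance entered limma with 4.76 degrees of freedom, so the p-values do not rest on the spread of a single probe set alone. They do not cover variation beyond these cultures. In bulk RNA, fewer cells of a type and less RNA per cell cannot be told apart.

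By count, 3 of the 14 member probe sets were called higher in Colony cells, against 4.0% of all probe sets, and 2 were called lower, against 5.81%. Together 5 of 14 (35.7%) were called either way, against 9.81% of all probe sets. Without the fold threshold, at an adjusted p below 0.05, 10 of 14 (71.4%) passed, 6 higher and 4 lower, against 22.7% of all probe sets. Among bright probe sets, those whose mean was not under the 40th percentile in both groups, 15.4% were called and 34.0% had an adjusted p under 0.05. Spry1 meets this definition only through A16 cells, standing at the 22.6 percentile in Colony cells and the 43.0 percentile in A16 cells, so the member counts were not read against these 2 shares. On 11 of the 14 the Colony and A16 arrays did not overlap in either summary of the arrays (RMA and PLIER), 6 higher and 5 lower in Colony, against 36.5% of all probe sets. The median log2 FC of the members was 0.16, beside 0.05 over all probe sets, and their median absolute log2 FC was 0.93, beside 0.23 over all. Over the bright probe sets the median absolute log2 FC was 0.36, with the limit given above for Spry1.

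**Figure D1:**
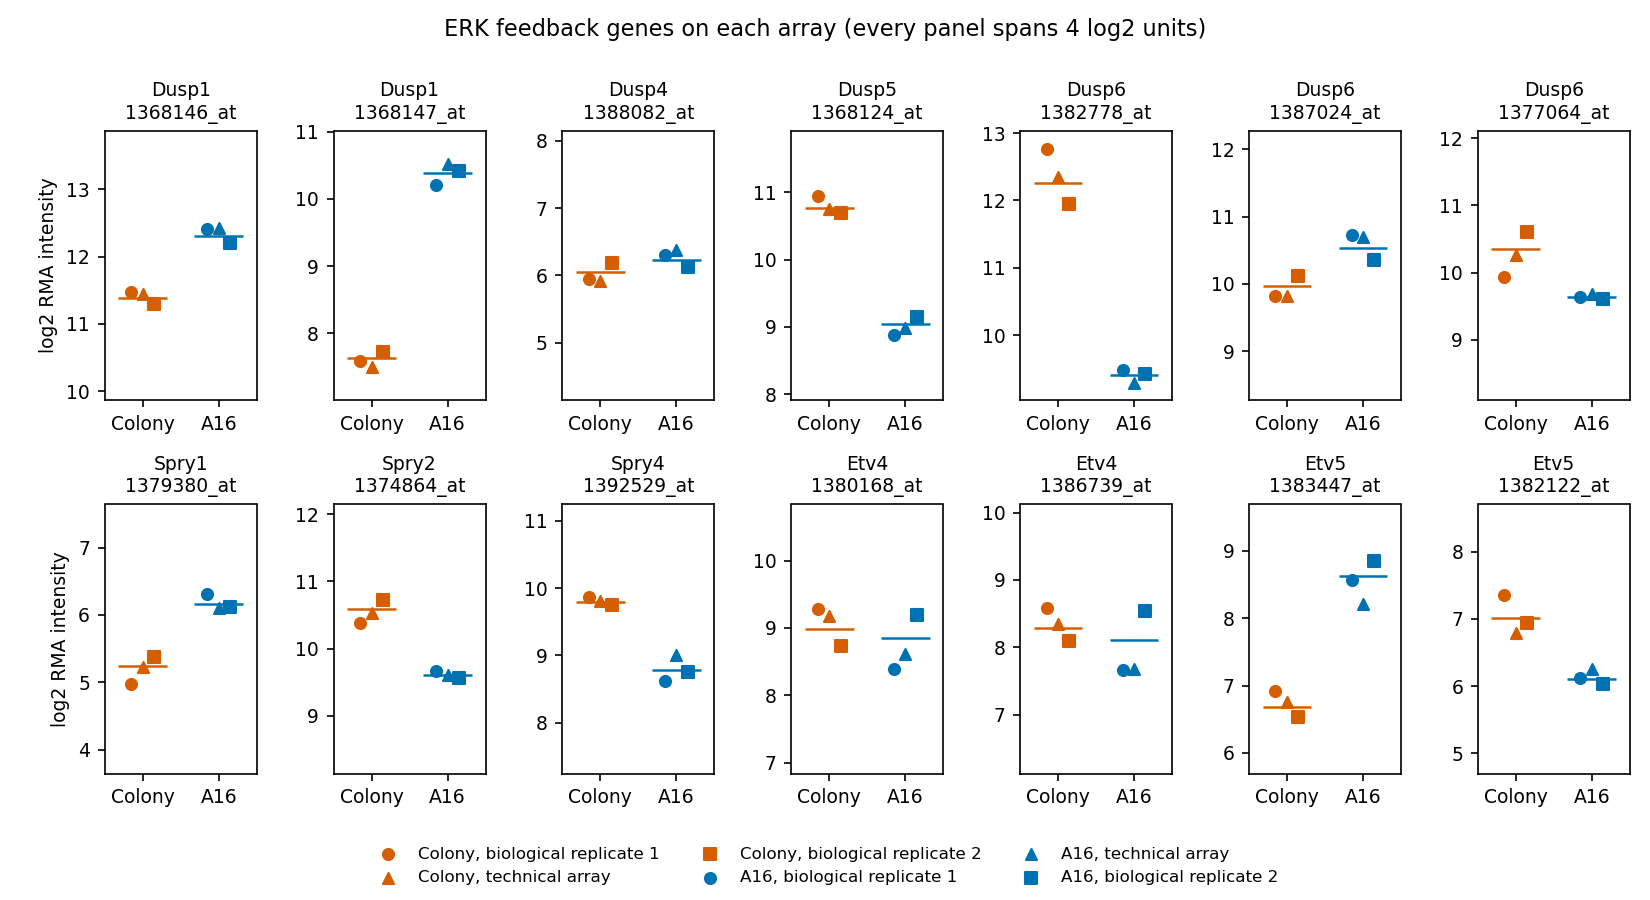
Log2 RMA intensity (vertical axis) of each of the 14 member probe sets on each of the 6 arrays, Colony left and A16 right, with a panel per probe set spanning 4 log2 units; circles are biological replicate 1, triangles the technical array, squares biological replicate 2 and lines the mean of the 2 cultures. The groups overlapped in RMA for 3 probe sets, those of Dusp4 and Etv4, and stood apart for the other 11.

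Dusp6 encodes the cytoplasmic phosphatase that is highly selective for ERK. Its brightest probe set, 1382778_at, had RMA intensities of 6993, 5194 and 3951 on the Colony arrays, against 713, 628 and 686 on the A16 arrays. The lowest Colony array stood 5.54-fold above the highest A16 array, while the Colony arrays spread 1.77-fold among themselves and the A16 arrays 1.14-fold. It rose in Colony cells by a log2 FC of 2.85 ± 0.21 (SE, 95% interval 2.35 to 3.34, limma adjusted p = 0.000218). Without Colony biological replicate 2, the culture with the conflicting label, the log2 FC was 3.15, and with PLIER it was 2.93.

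The other 2 Dusp6 probe sets did not follow it in size, and one did not follow it in direction. Probe set 1387024_at, the one annotated from the RefSeq transcript of Dusp6, had 909, 902 and 1109 on the Colony arrays, against 1698, 1669 and 1310 on the A16 arrays. All 3 Colony arrays lay under all 3 A16 arrays, in RMA and in PLIER, but the log2 FC of -0.57 ± 0.18 (95% interval -0.99 to -0.14) missed the threshold at a limma adjusted p of 0.0644. That p ran from 0.00432 with the technical arrays averaged with biological replicate 2 to 0.233 without biological replicate 1 of either group. Probe set 1377064_at had 980, 1232 and 1559 on the Colony arrays, against 797, 821 and 778 on the A16 arrays, a log2 FC of 0.72 ± 0.19 (limma adjusted p = 0.0331) at a fold change of 1.65, under the fold threshold. Without Colony biological replicate 2 its log2 FC was 0.47 (adjusted p = 0.119). The mean of the 3 probe sets had a log2 FC of 1.00 (adjusted p = 0.000727). Where these probe sets lie along the Dusp6 transcript was not analysed here, and which transcript each one reads was not tested.

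Dusp5 encodes a nuclear phosphatase that is also selective for ERK and whose transcript is induced by serum and growth factors. Its probe set, 1368124_at, annotated from a RefSeq transcript, had 1967, 1733 and 1651 on the Colony arrays, against 472, 508 and 565 on the A16 arrays. The Colony arrays stood well apart from the A16 arrays, the lowest being 2.92-fold above the highest A16 array, and each group spread by less than 1.2-fold. Dusp5 rose in Colony cells by a log2 FC of 1.73 ± 0.14 (SE, 95% interval 1.39 to 2.07, limma adjusted p = 0.000403), and by 1.81 without Colony biological replicate 2.

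Dusp1 encodes MKP-1, a nuclear phosphatase of the immediate early genes that acts on p38 and JNK as well as on ERK. Its probe set 1368147_at had 193, 181 and 213 on the Colony arrays, against 1177, 1466 and 1366 on the A16 arrays. The groups were as far apart as for the brightest Dusp6 probe set, but the other way round, with the lowest A16 array 5.54-fold above the highest Colony array. It fell in Colony cells, with a log2 FC of -2.75 ± 0.14 (SE, 95% interval -3.07 to -2.43, limma adjusted p = 4.75e-05). The brighter Dusp1 probe set, 1368146_at, had 2832, 2781 and 2524 on the Colony arrays, against 5417, 5513 and 4717 on the A16 arrays, a log2 FC of -0.93 ± 0.14 (limma adjusted p = 0.0048). It ran the same way at 1.91-fold lower in Colony cells, under the fold threshold, and the 95% intervals of both Dusp1 probe sets did not overlap. The mean of both had a log2 FC of -1.84 (adjusted p = 1.7e-05).

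Dusp4 encodes MKP-2, an inducible nuclear phosphatase of ERK and JNK. It had 61.4, 60.4 and 72.5 on the Colony arrays, against 79.0, 83.0 and 70.0 on the A16 arrays, and the groups overlapped. Its log2 FC was -0.18 ± 0.15 (95% interval -0.55 to 0.19, limma adjusted p = 0.479). In PLIER the Colony arrays, at 34.2, 35 and 60.1, lay under the A16 arrays, at 71.1, 65.9 and 72.4, and the log2 FC was -0.63 (adjusted p = 0.163). The mean RMA level of Dusp4 stood at the 41.9 percentile of all probe sets, and whether it was above background is not known.

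**Figure D2:**
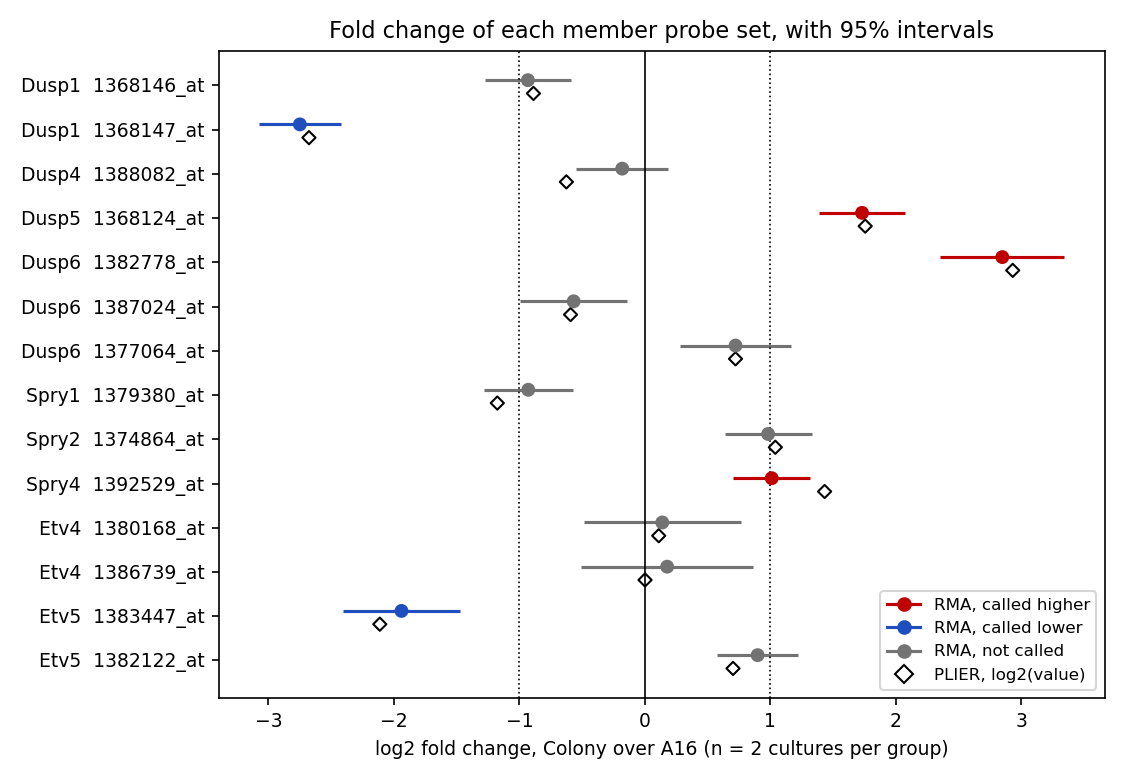
Log2 fold change of Colony over A16 (horizontal axis) for each member probe set, with filled points for RMA (limma, n = 2 cultures per group), bars for the 95% interval, open diamonds for PLIER and dotted lines at a fold change of 2. Dusp6 holds probe sets on both sides of 0 (2.85, 0.72 and -0.57), as does Etv5 (0.90 and -1.94).

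The Sprouty genes encode membrane-associated inhibitors that bind adaptors and RAF upstream of ERK, and the 3 measured did not move together. Spry4 had 934, 897 and 863 on the Colony arrays, against 393, 515 and 432 on the A16 arrays, so that the groups stood apart. Spry4 rose in Colony cells by a log2 FC of 1.01 ± 0.13 (SE, 95% interval 0.71 to 1.32, limma adjusted p = 0.00218), just over the fold threshold. It fell short of a 2-fold change, at a log2 FC of 0.97 to 0.99, without Colony biological replicate 1, without A16 biological replicate 2 or with 16 added to the RMA intensity, while PLIER gave 1.43. Spry2 lay on the other side of that threshold. It had 1328, 1485 and 1684 on the Colony arrays, against 816, 781 and 759 on the A16 arrays, and the groups did not overlap. Its log2 FC was 0.98 ± 0.15 (95% interval 0.64 to 1.33, limma adjusted p = 0.00402), a fold change of 1.98, and with PLIER it passed the call at a log2 FC of 1.04. The intervals of Spry2 and Spry4 covered nearly the same range, and the difference between these genes was not tested.

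Spry1 ran against the other Sprouty genes. It had 31.3, 37.5 and 41.5 on the Colony arrays, against 79.6, 68.9 and 69.5 on the A16 arrays, and every Colony array was lower. The log2 FC was -0.93 ± 0.15 (SE, 95% interval -1.28 to -0.58, limma adjusted p = 0.0054), which is 1.90-fold lower in Colony cells and under the fold threshold. With PLIER it passed the call at -1.18 as log2(value) but not with 16 added, at -0.80, and RMA with 16 added gave -0.71. The Colony PLIER values were 22.1, 25.03 and 22.6, near the lowest PLIER value of 16.0, against 51.4, 51.7 and 52.6 in A16. Its mean level stood at the 33.1 percentile of all probe sets. No detection calls were used, so whether Spry1 was above background in Colony cells is not known.

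Etv5 encodes an ETS factor of the PEA3 group, and its 2 probe sets differed in opposite directions. The brightest, 1383447_at, had 121, 108 and 92.3 on the Colony arrays, against 381, 296 and 462 on the A16 arrays, and the lowest A16 array was 2.45-fold above the highest Colony array. It fell in Colony cells, with a log2 FC of -1.94 ± 0.20 (SE, 95% interval -2.41 to -1.47, limma adjusted p = 0.000882), and without Colony biological replicate 2 its log2 FC was -1.78. Probe set 1382122_at had 164.5, 110.8 and 123.1 on the Colony arrays, against 69.7, 76.0 and 65.7 on the A16 arrays. Here every Colony array was higher, with a log2 FC of 0.90 ± 0.14 (95% interval 0.57 to 1.22, limma adjusted p = 0.00447) at a fold change of 1.86. The mean of both gave a log2 FC of -0.52 (adjusted p = 0.0255), with which Etv5 was no longer called. Etv5 was the 1 gene of the 4 with several probe sets that had an adjusted p under 0.05 in both directions, against 3.09% of the 4525 genes on the array with at least 2 probe sets. Both Etv5 probe sets are annotated from GenBank entries outside RefSeq, and which transcript each one reads was not tested.

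Etv4, the close relative of Etv5, did not pass the test with either probe set. Probe set 1380168_at had 623, 582 and 425 on the Colony arrays, against 335, 393 and 583 on the A16 arrays. In both probe sets A16 biological replicate 2 stood above the other A16 arrays, within the range of the Colony arrays. The log2 FC of 1380168_at was 0.14 ± 0.26 (95% interval -0.49 to 0.76, limma adjusted p = 0.773). That of 1386739_at, with 385, 326 and 272 on the Colony arrays, against 201, 204 and 372 on the A16 arrays, was 0.18 ± 0.29 (95% interval -0.51 to 0.86, limma adjusted p = 0.732). Without biological replicate 1 of either group the sign turned, to between -0.26 and -0.01 over both probe sets, so Etv4 has no settled direction here.

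Counted by the brightest probe set of each gene, 3 of the 9 genes rose in Colony cells (Dusp5, Dusp6 and Spry4), against 4.36% of the 14217 genes with a symbol, and 1 fell (Etv5), against 4.75%. The other 5 genes were not called, Dusp1 among them, since its brightest probe set is the one that changed less. The brightest probe set was picked by the mean over both groups, and the calls of Dusp6 and Etv5 depend on that choice. By the A16 level alone, Dusp6 would stand by 1387024_at (log2 FC -0.57, not called). By the Colony level alone, Etv5 would stand by 1382122_at (log2 FC 0.90, not called). Dusp1 and Etv4 keep the same probe set by either level. The median log2 FC of the 9 genes was 0.14, beside 0.05 over all genes.

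**Figure D3:**
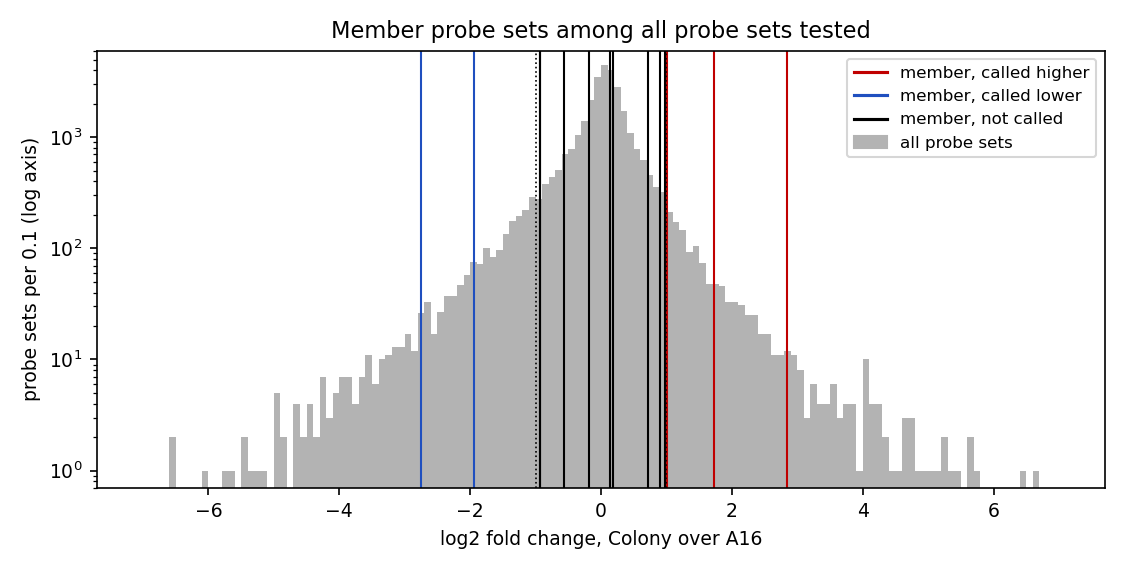
Number of all 31042 probe sets (vertical log axis) by log2 fold change of Colony over A16 (horizontal axis, bins of 0.1), with a vertical line for each of the 14 member probe sets and dotted lines at a fold change of 2. The called members lie on both flanks of the distribution, from -2.75 for Dusp1 to 2.85 for Dusp6.

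Beyond these genes, 9 of 12 listed other MAP kinase phosphatases and feedback inhibitors were measured, with a median log2 FC of 0.03. By the brightest probe set, 3 were called higher in Colony cells, none lower and 6 were not called. Of all genes, 4.36% were called higher and 4.75% lower. Without the fold threshold, 4 had an adjusted p under 0.05, 3 higher and 1 lower, where 22.7% of all probe sets passed. That share is over probe sets, not over genes by their brightest probe set, here and in the lists below. Errfi1, whose product MIG6 binds and inhibits the epidermal growth factor receptor, had 2372, 2592 and 2998 on the Colony arrays, against 722, 712 and 635 on the A16 arrays, and rose 4.04-fold (limma adjusted p = 0.000263). Dusp7, which encodes a cytoplasmic ERK phosphatase close to Dusp6, had 2204, 2823 and 3416 on the Colony arrays, against 1137, 1183 and 1311 on the A16 arrays, and rose 2.37-fold (limma adjusted p = 0.00386). Dusp9, the third cytoplasmic ERK phosphatase, had 97.4, 93.6 and 91.6 on the Colony arrays, against 46.7, 43.7 and 41.8 on the A16 arrays, and rose 2.15-fold (limma adjusted p = 0.00159). Its mean level stood at the 39.4 percentile of all probe sets, so whether Dusp9 was above background in A16 cells is not known.

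Of 23 listed adaptors, RAS proteins, kinases and regulators of the cascade itself, 16 were measured. By the brightest probe set of each gene, 1 was called higher, none lower and 15 were not called, with a median log2 FC of 0.04. Without the fold threshold, 4 had an adjusted p under 0.05, all higher, where 22.7% of all probe sets passed. Of all genes, 4.36% were called higher and 4.75% lower. Frs2, the gene of an adaptor of fibroblast growth factor receptors, counts here as not called at a log2 FC of 0.66, while 1 of its 2 probe sets was called lower. The gene called was Sos2, which encodes an exchange factor that loads RAS with GTP, with 1789, 1777 and 1639 on the Colony arrays, against 797, 827 and 762 on the A16 arrays (2.17-fold, limma adjusted p = 0.0016). Of 14 listed other transcripts raised by ERK signalling, all were measured, with a median log2 FC of -0.36. By the brightest probe set 1 was called higher, 1 lower and 12 were not called. These counts are near the shares of all genes just given. Without the fold threshold, 6 had an adjusted p under 0.05, 3 higher and 3 lower, where 22.7% of all probe sets passed. Among the 12, Elk3 had 1 of 4 probe sets called higher and Emp1 1 of 2 called lower. Ccnd1, the gene of cyclin D1, had 7205, 6743 and 7293 on the Colony arrays, against 2450, 2837 and 2539 on the A16 arrays, and rose 2.76-fold (limma adjusted p = 0.000478), with 1 of its 3 probe sets called. Hbegf, which encodes a ligand of the epidermal growth factor receptor, had 354, 327 and 268 on the Colony arrays, against 1223, 1210 and 1955 on the A16 arrays, and fell with a log2 FC of -2.35 (limma adjusted p = 0.000957).

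All 10 listed receptor tyrosine kinases were measured, with a median log2 FC of 0.02. By their brightest probe sets none was called higher, 2 were called lower and 8 were not called. Of all genes, 4.36% were called higher and 4.75% lower. Without the fold threshold, 3 had an adjusted p under 0.05, 1 higher and 2 lower, where 22.7% of all probe sets passed. Among the 8, Igf1r had 1 of 2 probe sets called lower. Fgfr3, a fibroblast growth factor receptor, had 59.7, 74.7 and 52.5 on the Colony arrays, against 236, 265 and 259 on the A16 arrays, and fell with a log2 FC of -2.11 (limma adjusted p = 0.000244). Egfr, the epidermal growth factor receptor, had 167, 140 and 101 on the Colony arrays, against 245, 237 and 320 on the A16 arrays, and fell with a log2 FC of -1.16 (limma adjusted p = 0.0129). Of the 3 Egfr probe sets, 2 were called lower. The groups did not overlap for either receptor. These values are transcript levels, and ERK phosphorylation was not measured.

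**Figure D4:**
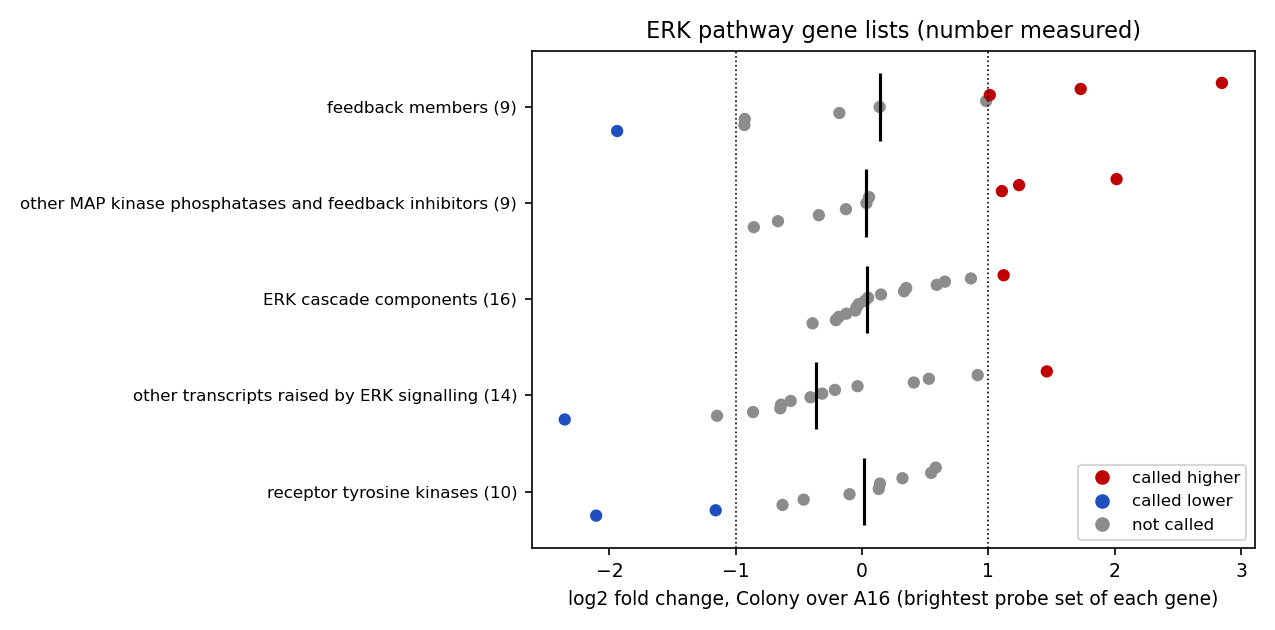
Log2 fold change of Colony over A16 (horizontal axis) for each measured gene, by its brightest probe set, in the 9 feedback genes and in 4 lists of other genes of the pathway; black bars mark medians and dotted lines a fold change of 2. Called genes stand on both sides in the feedback genes (3 higher, 1 lower) and in the other ERK-raised transcripts (1 and 1), only on the higher side in the other inhibitors (3) and the cascade (1), and only on the lower side in the receptors (2).

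Over all probe sets, 2 arrays of the same group differed by an SD of 0.17 to 0.33 on the log2 scale and a Colony array differed from an A16 array by 0.67 to 0.76. The A16 technical array differed from biological replicate 1 by 0.17 and from biological replicate 2 by 0.30. For the Colony technical array these were 0.22 and 0.24, which hardly tell which culture it came from. Median RMA intensities of the 6 arrays lay between 97.6 and 101. The deposited values were normalised between arrays, so these near-equal medians do not measure how well the arrays match. The labelled cell type was checked against its markers. All 10 fibroblast markers were measured, of which Vim and S100a4 were bright in both groups. Dcn was near the lowest intensities in both, and Fap stood at 41.4 to 50.6 over the arrays. Col1a1, Col3a1 and Thy1 were called lower in Colony cells and none higher. Col1a2 had 1 of 2 probe sets called lower, and Pdgfra was 1.46-fold higher (limma adjusted p = 0.0232), under the fold threshold. The summed RMA intensity of the 10 was 56110 to 60740 on the Colony arrays, against 72980 to 83720 on the A16 arrays. Of 8 macrophage and leukocyte markers, Csf1r rose 16.1-fold and the other 7 were not called. Cd14 had 534, 664 and 697 on the Colony arrays, against 1020, 1002 and 891 on the A16 arrays (log2 FC -0.56, limma adjusted p = 0.0366), Laptm5 and Lyz2 reached 165 and 130, and Ptprc, Cd53, Cd68 and Itgam stood at 75 or less on every array. The sum of the 8 was 1722 to 1775 on the Colony arrays, against 1303 to 1500 on the A16 arrays. Of 5 epithelial markers, Krt8 rose 4.39-fold and the others were not called. Epcam stayed under 27 on every array, Krt5 and Krt18 had log2 FC of 0.09 and 0.01, and Cdh1 was 1.67-fold higher (limma adjusted p = 0.00979). The sum of the 5 was 3086 to 3848 on the Colony arrays, against 834 to 955 on the A16 arrays. Krt8 alone, at 3668, 3430 and 2891 on the Colony arrays, made up most of it. None of 4 measured endothelial markers was called, and their sum was 155 to 189 on the Colony arrays, against 140 to 152 on the A16 arrays. The part of these differences in the values of the feedback genes was not tested.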

How the data were processed

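RNA of Colony and A16 cells was measured on 6 arrays. The authors scanned them, computed RMA and PLIER summaries in Avadis software (versions not stated) and deposited both as linear intensity, normalised between arrays. The range was 11.6 to 25775 for RMA and 16.0 to 14687 for PLIER, and log2 of RMA was taken with nothing added. The 57 control probe sets of the 31099 were removed, and the 31042 others were tested with limma 3.58.1 (lmFit, eBayes; R 4.3.3), dim ones included. The technical array of each group was averaged with biological replicate 1 on the log2 scale, which left 2 cultures per group. The adjusted p-values are those of limma with Benjamini-Hochberg adjustment. The fit was first tested on simulated data.

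The array annotation gave 1 symbol to 20826 probe sets, several to 436 and none to 9780; symbols were updated by gene identifier for 20758 with RefSeq on GRCr8. A gene stands by each of its probe sets and, in counts of genes and in the lists, by the one with the highest mean log2 RMA value. Every member probe set is named. Of the other pathway lists, called genes up to 4 of each, by size, are named. Frs2, Elk3, Emp1, Igf1r and the marker Col1a2, whose probe sets disagree in their calls, were added after their values were seen. The members, lists and tests were chosen with earlier results of these data known, so no test of a list was made.

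The alternatives were PLIER, a pseudocount of 16, other uses of the technical array, the replicate number as a block, each biological replicate left out, a filter on dim probe sets, 3 other scalings between arrays, another variance model, the methods' t-test, and the mean of all probe sets of a gene. Figures were drawn with Python 3.11.15 and matplotlib 3.10.9. No array of NA16 or tumour cells was used here.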

Additional observations from a re-analysis of the deposited data

How the results depend on the processing

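Over 17 alternative settings, 217 of 238 values of member probe sets kept their direction and their side of the threshold for a call. In 13 values a probe set passed that was not called before, and 3, all of Spry4, no longer passed. Dusp5, the brightest Dusp6 probe set, the called Dusp1 probe set and the called Etv5 probe set kept their call in every one of these settings, with log2 FC from 1.63 to 1.86, 2.54 to 3.15, -2.84 to -2.56 and -2.17 to -1.71. The 5 values that reversed were all of Etv4, which did not pass in any setting. For 1380168_at the log2 FC was -0.11 without Colony replicate 1 and -0.20 without A16 replicate 1, and for 1386739_at it was -0.0023 with PLIER as log2(value + 16), -0.01 without Colony replicate 1 and -0.26 without A16 replicate 1. With 1 replicate left out their log2 FC ran from -0.20 to 0.48 and from -0.26 to 0.62. The cause was not tested. With 1 replicate left out, the lone culture is assumed to vary like the other group.

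Member probe sets called numbered 5, and 4 to 7 over the settings other than the methods' t-test, 5 to 6 with 1 replicate left out. All probe sets called numbered 3045, and 2502 to 3688 over the same settings, 2794 to 3637 with 1 replicate left out. The methods' t-test called 5 members and 2383 probe sets at an unadjusted p under 0.05, and after Benjamini-Hochberg adjustment 0 members and 0 probe sets, whereas limma at an unadjusted p, an alternative chosen after seeing the data, called 5 and 3136. The replicate numbers do not tie cultures across groups. A fit with the replicate block called 5 members and 3121 probe sets, and the crossed pairing, added after seeing the data since same-numbered deviations correlated at -0.15, called 5 and 3135. The median log2 FC of all probe sets was 0.02 to 0.10 over the settings. Intensities alone do not show which dim probe sets, such as that of Spry1, lie above background.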
